A study of Danio rerio with 18 samples.

Results

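The genes described here are dicer1, drosha and dgcr8, which encode the enzymes and the RNA-binding partner that cut microRNAs out of longer transcripts. They were taken as every probe set of an Affymetrix zebrafish array whose only gene symbol is one of these names, which gave 6 probe sets among the 15502 that are not controls, and 3 of the 8793 genes named on the array. The study profiled, on 18 arrays, cells separated by fluorescence-activated sorting from zebrafish embryos that had reached 14 to 16 somites at 28 °C in E3 medium. Total RNA was prepared in Trizol, and 100 ng went into the biotin labelling of each sample.

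The 6 groups came from 3 reporter lines, each sorted into GFP-positive and GFP-negative cells, with 3 arrays per group that the labels call biological replicates. From a Dicer-mutant line with a miR-124 reporter came GFP-positive cells of the central nervous system (CNS) and GFP-negative cells. From a wild-type line with the miR-124 reporter came the same fractions. The miR-206 reporter line, also wild type, gave GFP-positive muscle cells and GFP-negative cells. The mutant samples carry the prefix MZ in their titles, which the labels do not spell out. The sources used here do not give the allele, the sequences that drive the reporters or the number of embryos pooled. Each genotype of the miR-124 reporter is a single line, so genotype and line cannot be told apart, and no mutant miR-206 line was analysed here.

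Most microRNAs are made in sequential cuts. In the nucleus, Drosha, a ribonuclease III, and Dgcr8, the double-stranded RNA-binding protein that positions it, form the Microprocessor and release a hairpin from the primary transcript. In the cytoplasm Dicer, encoded by dicer1, cuts the hairpin into the short duplex that is loaded onto an Argonaute protein. In mammalian cells the Microprocessor also cleaves hairpins in the Dgcr8 transcript itself, and DGCR8 protein stabilises Drosha, so the levels of these partners are linked there.

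Values are MAS5 intensities on a linear scale, scaled so that every array had a 2% trimmed mean of 150. They compare a probe set across arrays, and the levels of different probe sets are not set against each other. For tests, log2(intensity + 16) was fitted with limma over all 18 arrays, and p-values were adjusted by the Benjamini-Hochberg method over 9548 features, 1 probe set per gene, with 0.05 as the threshold. Array medians ran from 30.9 to 44.7. Replicates correlated at r = 0.962 to 0.990 and arrays of different groups at 0.784 to 0.972. In the miR-206 line, 19 of 19 tested muscle genes were higher in GFP-positive than in GFP-negative cells, against 13.1% of all features. By the same comparison, 19 of 20 CNS progenitor genes were higher in the mutant miR-124 line, against 6.49% of all features. The wild-type miR-124 line had 18 of 20 higher, against 14.5%. The 16 neuron genes were less uniform: 10 were higher and 1 lower in the mutant line. For the wild-type miR-124 line 8 were higher and 2 lower. Of 10 epidermis genes, 3 were lower in GFP-positive cells of the mutant line and 10 in those of the wild-type miR-124 line. Over all features, 9.03% were lower in the mutant line and 18.3% in the wild-type miR-124 line. Bulk RNA from sorted fractions does not tell fewer cells of a type from less RNA per cell.

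All 3 genes differed among the 6 groups, as did 77.1% of all features by the same test (limma F test, adjusted p = 0.00483 for dicer1, 0.000499 for drosha and 3.0e-06 for dgcr8). In the main fit, the pairwise differences that passed lay between genotypes. In Dicer-mutant cells dgcr8 was 1.87-fold lower than in wild type among CNS cells and 2.05-fold lower among GFP-negative cells. There dicer1 was 1.75-fold and 1.87-fold lower, and drosha was 1.36-fold and 1.57-fold higher. Between the sorted fractions of any 1 line none of the 3 genes passed in the main fit. Drosha in wild-type CNS over GFP-negative cells passed with quantile normalization and with median-centred arrays. Dicer1 in muscle over wild-type CNS cells passed in some alternative fits.

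For dicer1, the gene named by the mutation, the probe set Dr.7201.1.A1_at measured 110.1, 209.3 and 100.7 in mutant CNS cells, against 224.2, 258.9 and 251.8 in wild-type CNS cells. Every mutant CNS array was below every wild-type one, as for 26.2% of all features, although mutant replicate 2 came close to wild-type replicate 1. The means were 140 ± 60.2 in mutant CNS cells and 245 ± 18.3 in wild-type CNS cells (SD, n = 3 each). GFP-negative cells measured 92.1, 116.9 and 71.4 in the mutant, against 187.2, 290.6 and 115.8 in the wild-type miR-124 line. These groups overlapped by a single pair of arrays, mutant replicate 2 and wild-type replicate 3. The means were 93.5 ± 22.8 in mutant GFP-negative cells and 198 ± 87.9 in wild-type GFP-negative cells. The position of the probe set relative to the lesion is not given by these sources, so its level neither checks the lesion nor measures Dicer protein.

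The log2 fold change of dicer1 in mutant over wild-type CNS cells was −0.81 (SE 0.26, 95% confidence interval −1.35 to −0.26, adjusted p = 0.022). In GFP-negative cells it was −0.90 (SE 0.26, interval −1.45 to −0.36, adjusted p = 0.0117). Averaged over both fractions it was −0.85 (SE 0.18, adjusted p = 0.000791). In these comparisons 34.7%, 34.9% and 51.1% of all features passed in either direction, and 15.4%, 17.4% and 24.5% passed as lower. The call in CNS cells was lost without wild-type replicate 2 (−0.77, adjusted p = 0.064) or 3 (−0.79, adjusted p = 0.0592), and without mutant replicate 1 (−0.68, adjusted p = 0.0917) or 3 (−0.63, adjusted p = 0.111). That in GFP-negative cells was lost without wild-type replicate 2 (−0.60, adjusted p = 0.084) or mutant replicate 3 (−0.75, adjusted p = 0.0632), while the average over both fractions passed whichever array was left out.

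For drosha, the nuclear ribonuclease, the brighter probe set Dr.11510.1.A1_at measured 89.3, 91.4 and 94.4 in mutant CNS cells, against 62.8, 61.9 and 65.4 in wild-type CNS cells. In GFP-negative cells it measured 90.0, 83.7 and 88.5 in the mutant, against 59.1, 54.0 and 38.2 in the wild-type miR-124 line. In CNS cells the genotypes did not overlap, as for 29.9% of all features in this direction. The 6 mutant arrays ran from 83.7 to 94.4 and the 12 wild-type arrays of both reporter lines from 38.2 to 68.0, with no overlap in intensity. Over all features, 8.07% separated the mutant from the wild-type arrays in this direction. The group means were 91.7 ± 2.56 in mutant CNS cells and 63.4 ± 1.82 in wild-type CNS cells, and 87.4 ± 3.29 in mutant GFP-negative cells and 50.4 ± 10.9 in wild-type GFP-negative cells.

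Drosha transcript was higher in mutant CNS cells by 0.44 on the log2 scale (SE 0.14, interval 0.15 to 0.73, adjusted p = 0.0185). In GFP-negative cells it was higher by 0.65 (SE 0.14, interval 0.36 to 0.94, adjusted p = 0.00141), and over both fractions by 0.55 (SE 0.10, adjusted p = 0.000139). As higher, 19.3%, 17.5% and 26.5% of all features passed these tests. Within each array, the probe set stood at percentiles 62.3 to 64.2 of intensity in mutant CNS cells and 58.2 to 59.8 in wild-type CNS cells. It stood at 61.3 to 62.8 in mutant GFP-negative cells and at 59.1 to 63.0 in muscle cells. By percentile, therefore, the mutant arrays overlapped the wild-type arrays of both reporter lines, which they did not by intensity. The CNS call depended on the scaling: it was lost with quantile normalization (0.30, adjusted p = 0.135) and with arrays centred on their medians (0.36, adjusted p = 0.0694). It was also lost without wild-type replicate 1 (0.44, adjusted p = 0.0501) or 2 (0.43, adjusted p = 0.054) or mutant replicate 3 (0.42, adjusted p = 0.0572).

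For dgcr8, the RNA-binding partner, the brightest probe set Dr.26327.1.A1_at measured 488.0, 602.6 and 551.1 in mutant CNS cells, against 1204.4, 957.4 and 962.6 in wild-type CNS cells. In GFP-negative cells it measured 428.6, 497.8 and 467.7 in the mutant, against 920.2, 1340.1 and 736.6 in wild-type cells of the miR-124 line. The highest mutant array (602.6) was below the lowest of the 12 wild-type arrays of both reporter lines (736.6), a separation that 6.72% of all features showed in this direction. Mean intensity was 547 ± 57.4 in mutant CNS cells, against 1041 ± 141 in wild-type CNS cells, and 465 ± 34.7 in mutant GFP-negative cells, against 999 ± 309 in those of the wild type.

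The log2 fold change of dgcr8 was −0.91 in mutant over wild-type CNS cells (SE 0.18, interval −1.27 to −0.54, adjusted p = 0.00057) and −1.04 in GFP-negative cells (SE 0.18, interval −1.40 to −0.67, adjusted p = 0.000221). Over both fractions it was −0.97 (SE 0.12, adjusted p = 3.6e-06). Of all features, 2.53% had a lower fold change in CNS cells and 2.24% in GFP-negative cells. The dgcr8 call in each fraction passed under every scaling and with any single array of the compared groups left out.

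**Figure D1:**
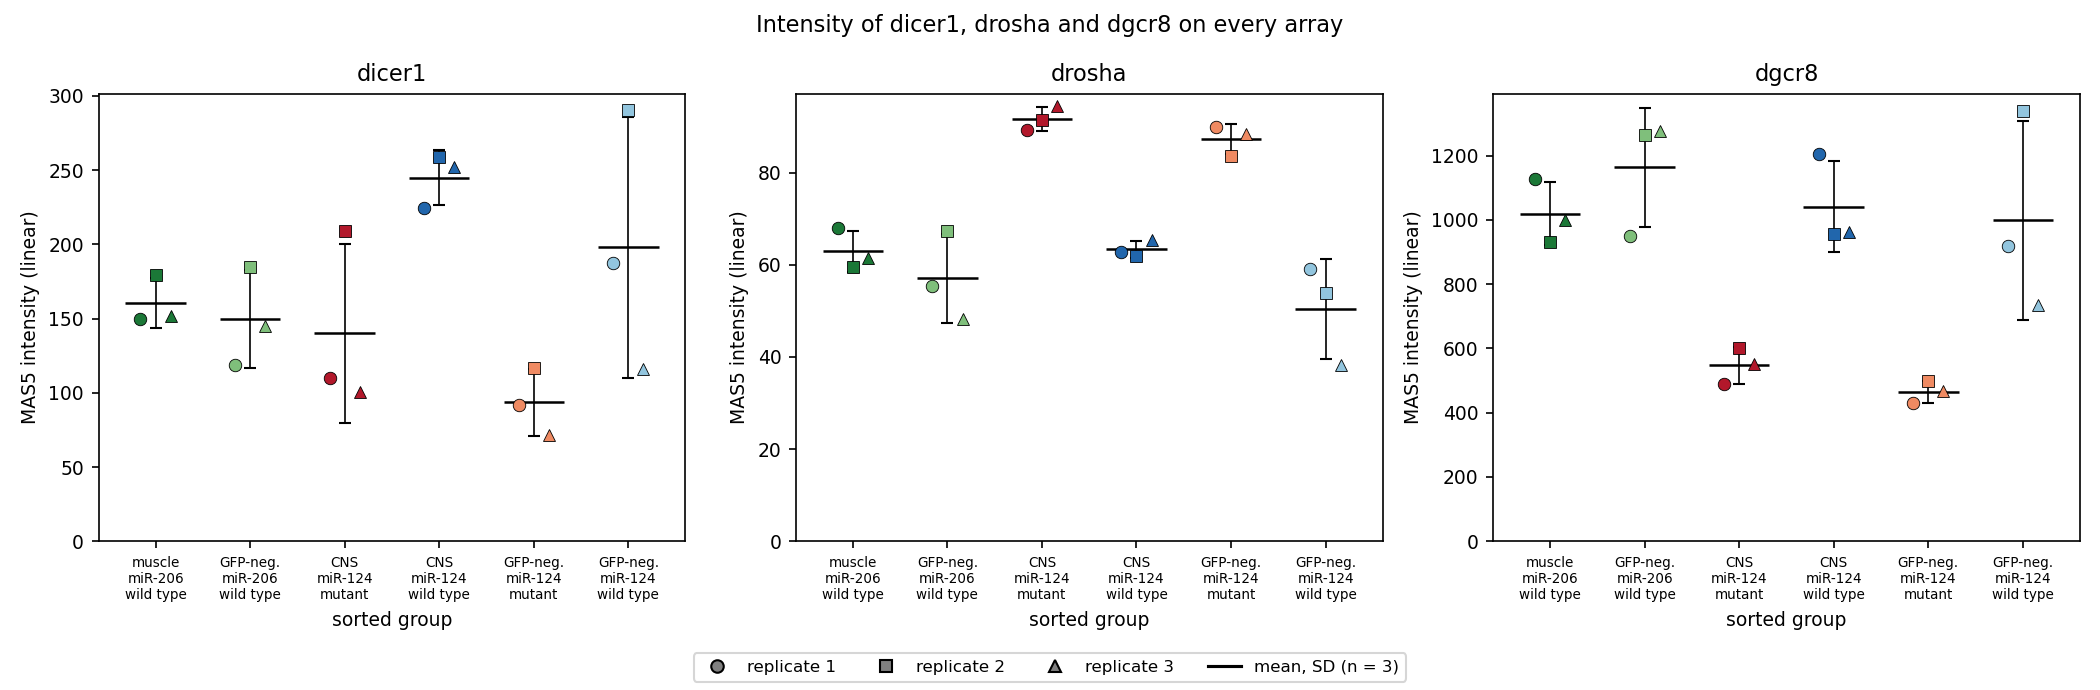
MAS5 intensity (linear scale, y axis) of the probe set that stands for dicer1, drosha and dgcr8 on every array, by sorted group (x axis); point shapes are replicate numbers and bars are the mean and SD of 3 arrays. The 6 mutant arrays lie between 83.7 and 94.4 for drosha, above all 12 wild-type arrays, and between 428.6 and 602.6 for dgcr8, below all 12, while dicer1 arrays of both genotypes overlap between 115.8 and 209.3.

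Thus dicer1 and dgcr8 were among the features called lower in both fractions, which were 9.45% of all. Drosha, by its brighter probe set only, was among those called higher in both, which were 11.4%. Its call in CNS cells depended on the scaling. The size of the genotype difference was not found to differ between CNS and GFP-negative cells. The interaction, the CNS over GFP-negative log2 ratio in the mutant minus that in wild type, was 0.10 for dicer1 (interval −0.67 to 0.87, adjusted p = 0.958). It was −0.21 for drosha (interval −0.62 to 0.20, adjusted p = 0.714) and 0.13 for dgcr8 (interval −0.39 to 0.65, adjusted p = 0.886), and 2.58% of all features passed this test.

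GFP-negative cells of the wild-type miR-206 line gave a further wild-type level, chosen after the values were seen. There dicer1 measured 118.9, 184.5 and 144.9, drosha 55.5, 67.4 and 48.3, and dgcr8 950.8, 1262.9 and 1276.0. Against these cells, mutant GFP-negative cells were lower in dgcr8 (−1.28, SE 0.18, adjusted p = 1.7e-05) and higher in drosha (0.51, SE 0.14, adjusted p = 0.00685), and dicer1 at −0.60 did not pass (SE 0.26, adjusted p = 0.075). In this comparison, which also changes the reporter line and the cells removed by sorting, 39.6% of all features passed.

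The remaining probe sets were dim. A second dgcr8 probe set, Dr.15101.3.S1_at, measured 15.4, 16.5 and 19.8 in mutant against 45.7, 26.7 and 36.2 in wild-type CNS cells. It measured 12.5, 20.5 and 16.3 in mutant against 35.1, 25.9 and 27.8 in wild-type GFP-negative cells. All 6 mutant arrays were below all 12 wild-type arrays, which ran from 25.9 to 45.7; of the 9548 features, 6.72% separated in this direction. The mutant arrays stood at percentiles 28.2 to 39.5 of intensity on their arrays. The 11 arrays on which the probe set exceeded the 40th percentile, 18.5 to 26.6 in intensity, were all wild type. It was thus kept only through the group in which it was higher, so its values are given as a description with no test.

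The second drosha probe set, Dr.11510.2.S1_at, had positive differences like the brighter one, but passed in neither fraction with all arrays. The drosha probe sets were not compared with each other by a test. It measured 23.8, 20.1 and 24.0 in mutant against 22.3, 20.2 and 18.8 in wild-type CNS cells, and 27.6, 23.5 and 23.2 in mutant against 25.4, 2.9 and 14.8 in wild-type GFP-negative cells. Its log2 fold changes were 0.08 in CNS cells (SE 0.21, interval −0.36 to 0.53, adjusted p = 0.798, with every kept probe set tested as a feature of its own) and 0.50 in GFP-negative cells (SE 0.21, interval 0.05 to 0.94, adjusted p = 0.0809). It exceeded the 40th percentile of its array on 7 of 18 arrays. Without wild-type replicate 1 of the GFP-negative cells its log2 fold change there was 0.76 (adjusted p = 0.0107). The third dgcr8 probe set, Dr.15101.2.S1_at, exceeded that percentile on 2 of 18 arrays and was not tested; it ran from 2.5 to 16.1 on mutant and from 7.1 to 23.2 on wild-type arrays.

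**Figure D2:**
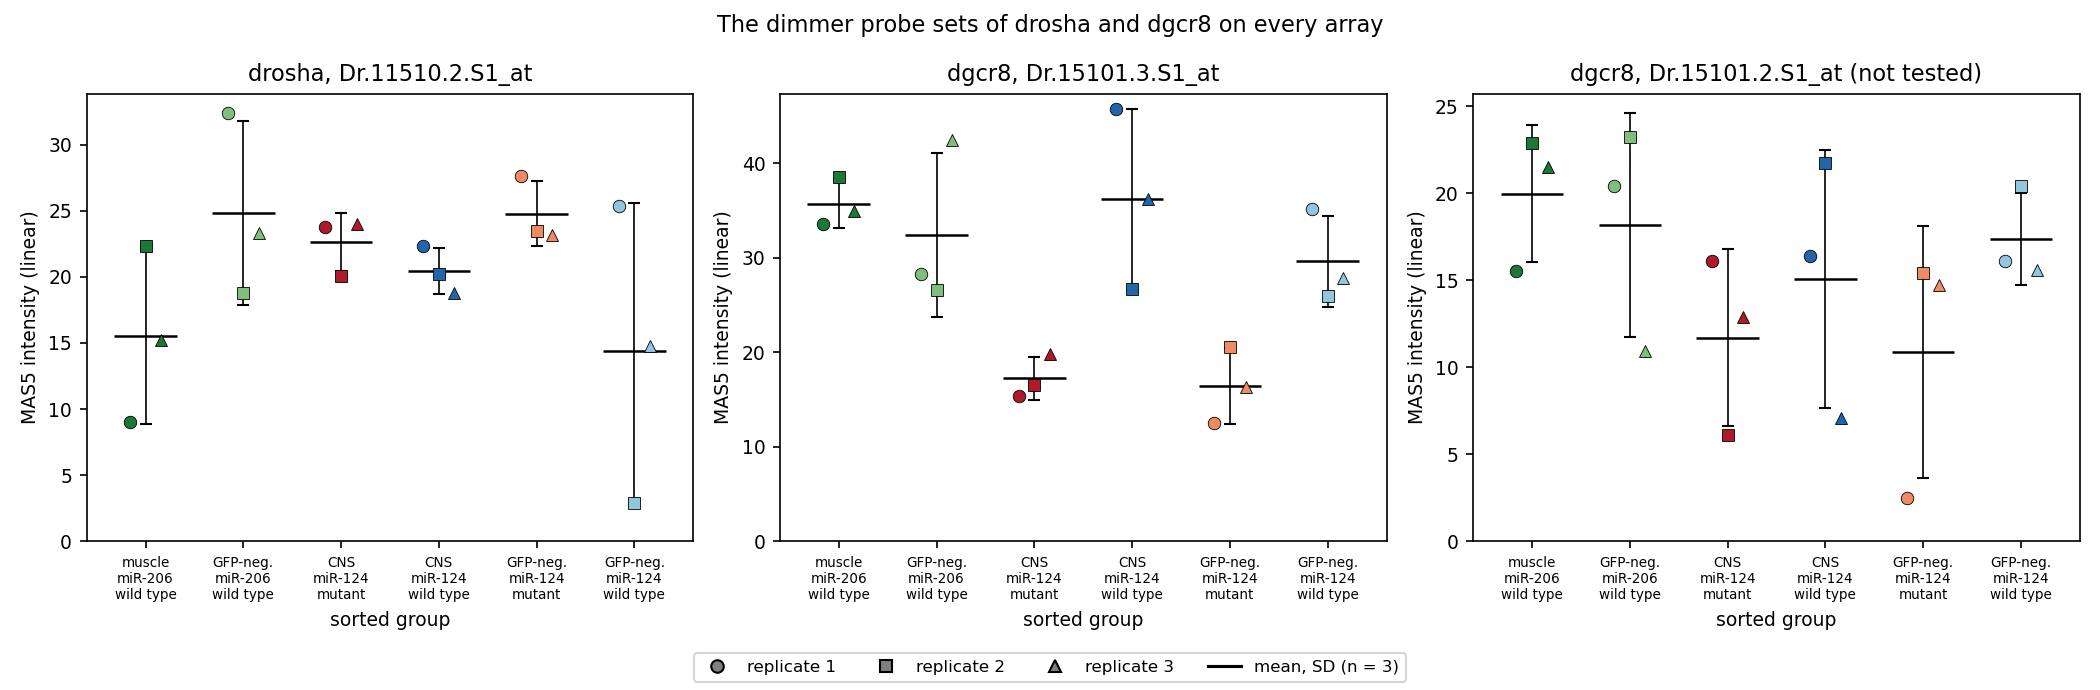
MAS5 intensity (linear scale, y axis) of the 3 dimmer probe sets of drosha and dgcr8 on every array, by sorted group (x axis), with replicate numbers as point shapes and the mean and SD of 3 arrays. For dgcr8 Dr.15101.3.S1_at the mutant arrays lie between 12.5 and 20.5 and the wild-type arrays between 25.9 and 45.7, whereas the genotypes overlap for the other probe sets.

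In the main fit none of the 3 genes passed in a comparison of tissues by sorting. Muscle cells measured 150, 179.6 and 151.7 for dicer1, 68.0, 59.5 and 61.4 for drosha, and 1125.7, 932.0 and 999.5 for dgcr8. Against GFP-negative cells of the same line, the log2 fold change in muscle was 0.11 for dicer1 (interval −0.44 to 0.65, adjusted p = 0.788). It was 0.12 for drosha (interval −0.17 to 0.41, adjusted p = 0.548) and −0.18 for dgcr8 (interval −0.55 to 0.19, adjusted p = 0.465), while 36.2% of all features passed. Differences of up to 0.65 for dicer1 therefore lie within the interval.

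Within the wild-type miR-124 line, CNS over GFP-negative cells gave 0.37 for dicer1 (interval −0.18 to 0.91, adjusted p = 0.311), 0.27 for drosha (interval −0.02 to 0.56, adjusted p = 0.148) and 0.09 for dgcr8 (interval −0.27 to 0.46, adjusted p = 0.734). All 3 CNS arrays were above all 3 GFP-negative arrays for drosha, as for 20.6% of all features, and the drosha difference passed with quantile normalization (0.42, adjusted p = 0.0341) and with arrays centred on their medians (0.42, adjusted p = 0.0317). In the mutant line the values were 0.47 for dicer1 (interval −0.08 to 1.01, adjusted p = 0.284), 0.06 for drosha (interval −0.23 to 0.35, adjusted p = 0.855) and 0.23 for dgcr8 (interval −0.14 to 0.59, adjusted p = 0.475). In these comparisons 32.8% and 15.5% of all features passed.

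Between the sorted tissues, dicer1 was 160 ± 16.6 in muscle and 245 ± 18.3 in wild-type CNS cells, with no overlap, as for 32.5% of all features in this direction. The log2 fold change of −0.57 (interval −1.11 to −0.02) had an adjusted p of 0.0856, and it passed when the fit held only these 2 groups (adjusted p = 0.00393), with array weights (−0.58, adjusted p = 0.0393) or with replicate number as a term (adjusted p = 0.0184). Drosha at −0.01 (interval −0.30 to 0.28, adjusted p = 0.968) and dgcr8 at −0.03 (interval −0.39 to 0.34, adjusted p = 0.920) did not pass, against 44.4% of all features. Lines and tissues change together in this comparison and cannot be told apart. GFP-negative cells of the wild-type miR-206 over the wild-type miR-124 line gave −0.31 for dicer1 (interval −0.85 to 0.24), 0.14 for drosha (interval −0.15 to 0.43) and 0.25 for dgcr8 (interval −0.12 to 0.61), with adjusted p of 0.548, 0.604 and 0.459, where 6.13% of all features passed. The GFP-positive over GFP-negative difference of the muscle sort minus that of the wild-type CNS sort was −0.26 for dicer1 (interval −1.03 to 0.51), −0.15 for drosha (interval −0.56 to 0.26) and −0.27 for dgcr8 (interval −0.79 to 0.25), with adjusted p of 0.630, 0.594 and 0.428, where 34.1% of all features passed.

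**Figure D3:**
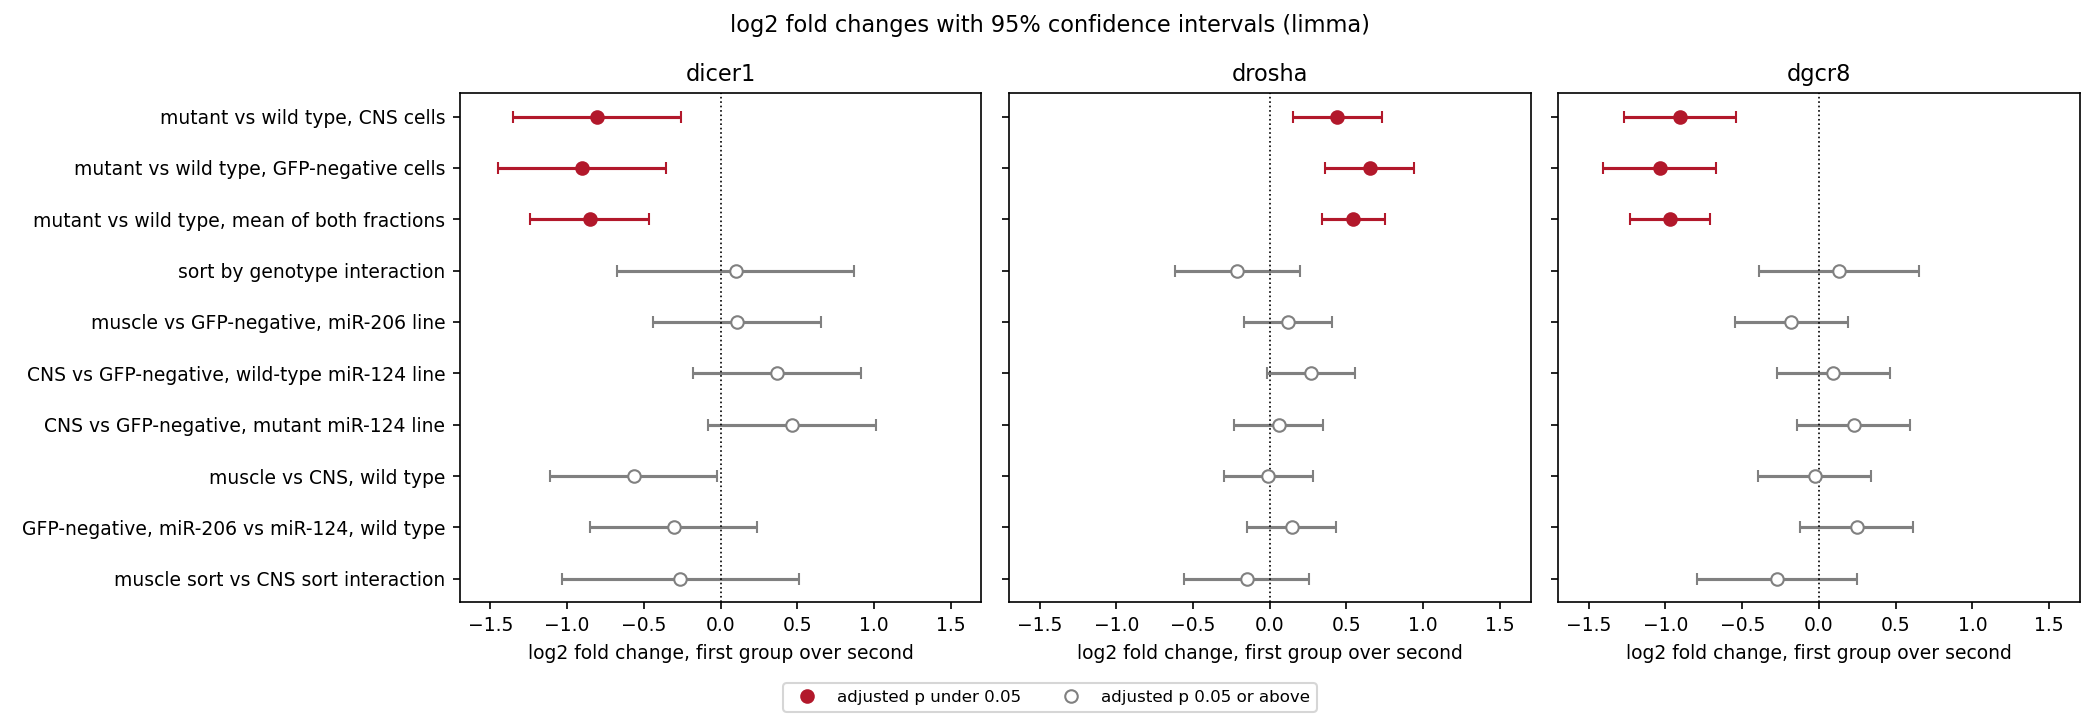
log2 fold change (x axis, first group over second) with 95% confidence intervals from limma for dicer1, drosha and dgcr8 in each comparison (rows); filled points passed an adjusted p of 0.05. The 3 mutant over wild-type rows passed for every gene, negative for dicer1 and dgcr8 and positive for drosha, and no other row passed.

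Ordered by group mean, dicer1 was highest in wild-type CNS cells (245) and then in GFP-negative wild-type miR-124 cells (198), muscle (160), GFP-negative miR-206 cells (149), mutant CNS cells (140) and mutant GFP-negative cells (93.5). Every neighbouring pair of groups in this order overlapped. Drosha was highest in mutant CNS cells (91.7) and mutant GFP-negative cells (87.4), followed after a gap without overlap by wild-type CNS cells (63.4), muscle (63.0), GFP-negative miR-206 cells (57.1) and GFP-negative wild-type miR-124 cells (50.4). For dgcr8 the order was GFP-negative miR-206 cells (1163), wild-type CNS cells (1041), muscle (1019) and GFP-negative wild-type miR-124 cells (999), then, without overlap, mutant CNS cells (547) and mutant GFP-negative cells (465). The only neighbours that did not overlap, for drosha and for dgcr8, were the pair at the change of genotype.

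The array with replicate number 2 was the highest for dicer1 in 6 of 6 groups. On log2(intensity + 16), mutant CNS replicate 2 stood 0.595 above and GFP-negative wild-type miR-124 replicate 2 stood 0.60 above their group means. With replicate number as a term in the fit, the standard error of the dicer1 differences was 0.19, and the adjusted p was 0.00256 in CNS and 0.00122 in GFP-negative cells. That term takes the number as shared between lines, which the labels do not state. Over all features, deviations of same-numbered mutant and wild-type CNS arrays correlated at r = 0.0359, −0.0413 and 0.0726, with 2 of 6 arrays closest to their own number. In GFP-negative cells r was 0.0859, 0.0583 and 0.0797, with 4 of 6. Between muscle and wild-type CNS arrays r was 0.092, 0.17 and 0.0553, with 5 of 6. Between GFP-negative arrays of the wild-type miR-206 and miR-124 lines it was 0.167, 0.00675 and 0.281, with 4 of 6. GFP-negative wild-type miR-124 replicate 2 was above its group mean for all 3 genes and replicate 3 below it for all 3. Replicate 2 of that group also held nanos3, a germ-cell RNA-binding protein gene, at 3353.1, against 33.2 and 106.1 on replicates 1 and 3. The germ-cell helicase gene ddx4 (vasa) was at 16.0, 18.8 and 20.2 on replicates 1, 2 and 3. It was too dim to be tested, so it does not show whether germ cells differed between these arrays. Any part of these array differences in the 3 genes' values was not tested.

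**Figure D4:**
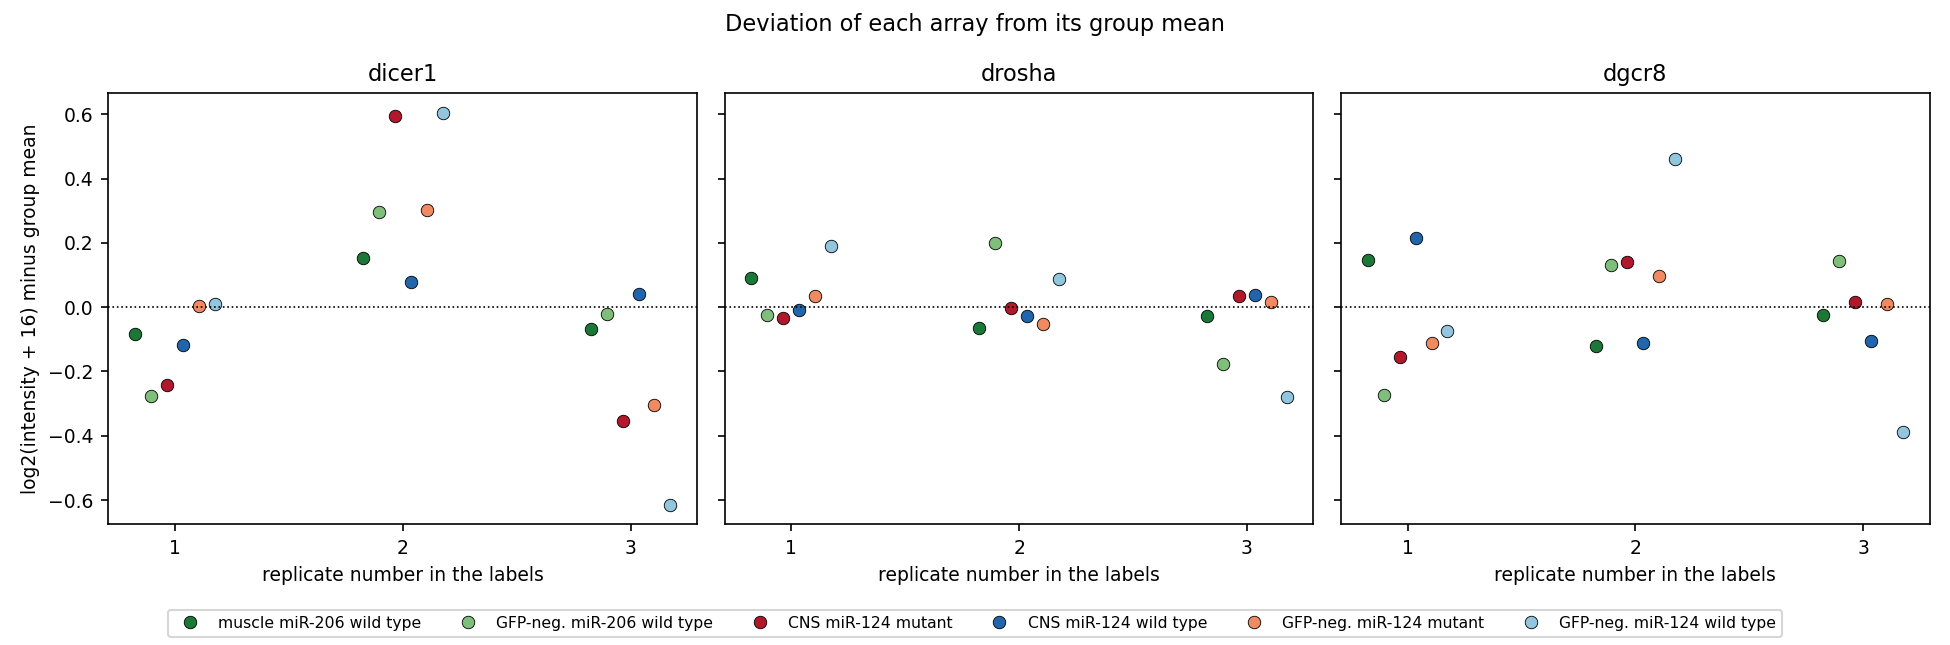
Deviation of each array from its group mean on log2(intensity + 16) (y axis) by replicate number (x axis) for dicer1, drosha and dgcr8, with groups by colour. For dicer1 all 6 arrays numbered 2 lie above 0, the highest at 0.60, and for dgcr8 the GFP-negative wild-type miR-124 arrays numbered 2 and 3 lie at 0.46 and −0.39.

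Over the 18 arrays, which share genotype and sort groups, dicer1 and dgcr8 varied together (Pearson r = 0.71, Spearman rho = 0.69), drosha and dgcr8 in opposite directions (r = −0.71, rho = −0.59), and dicer1 and drosha weakly so (r = −0.37, rho = −0.36). After each group's mean was removed, all 3 pairs were positive, at 0.67 for dicer1 with dgcr8 and 0.42 for each of the other pairs. GFP-negative wild-type miR-124 replicates 2 and 3 deviated most for dicer1 (0.604 and −0.614) and dgcr8 (0.461 and −0.388). For drosha they stood at 0.0892 and −0.28. How far the 3 positive values rest on these 2 arrays was not tested. These correlations describe the arrays and carry no test.

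Among named features, those most like dicer1 over the 18 arrays were mkrn1, a ubiquitin ligase gene (r = 0.87), waca (r = 0.84), the chromatin protein gene hmgb3b (r = 0.82), the endophilin gene sh3gl2a (r = 0.79) and the zinc-finger gene znf346 (r = 0.79). Over the 12 wild-type arrays alone their r ran from 0.525 to 0.830. Those most like drosha were rnf40, a histone H2B ubiquitin ligase gene (r = 0.93), fam98a (0.90), the cysteine desulfurase gene nfs1 (0.89), fam135a (0.89) and the RNA helicase gene ddx3xa (0.88), with r of 0.463 to 0.823 over the wild-type arrays. Those most like dgcr8 were the selenoprotein gene selenoh (r = 0.93), trmt9b (0.93), hmgb3a (0.92), the exon-junction complex gene rbm8a (0.92) and the pseudouridine synthase gene pus7 (0.92), with r of 0.454 to 0.637 over the wild-type arrays. Of the 9547 other features, 11 had r above 0.8 with dicer1, 170 with drosha and 317 with dgcr8.

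A list of 100 further genes of microRNA processing, action and RNA decay had single-gene probe sets for 55, of which 50 were tested. In mutant CNS cells 8 were higher and 12 lower than in wild type, against 19.3% and 15.4% of all features, with a median log2 fold change of −0.10 against 0.02 over all features. These counts are 16% and 24% of the list. In mutant GFP-negative cells 8 (16%) were higher and 10 (20%) lower, against 17.5% and 17.4% of all features, with a median of −0.01 against −0.00 over all features. With array weights 19 were lower in CNS cells, and without mutant replicate 2 the number lower in GFP-negative cells was 6. The same 8 genes (16%) were higher in both fractions, against 11.4% of all features, 5 (10%) were lower in both, against 9.45%, and none passed in opposite directions. Single-gene probe sets for the Argonaute genes, for xpo5, which exports hairpins, and for the Dicer partners tarbp2 and prkra were not found, and of the 10 listed Dicer partners and precursor regulators none was tested.

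Of the 7 nuclear processing partners, 2 were lower in mutant CNS cells, where 15.4% of all features were lower, and none passed in GFP-negative cells, where 34.9% passed in either direction. The Microprocessor helicases ddx5 and ddx17 had log2 fold changes of 0.02 and −0.05 in CNS cells and 0.19 and 0.41 in GFP-negative cells, none past the threshold, and srrt, a cap-associated processing factor, had −0.17 and 0.14. The RNA-binding protein genes srsf3b (−0.46, adjusted p = 0.00692) and hnrnpa1b (−0.65, adjusted p = 0.00264) fell in CNS cells, as did ran, the GTPase of hairpin export (−0.60, adjusted p = 0.00126). With quantile normalization neither hnrnpa1b (−0.15, adjusted p = 0.431) nor ran (−0.18, adjusted p = 0.19) passed.

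Of 8 tested effector genes, 3 were higher and 3 lower in mutant CNS cells, and 3 higher and 2 lower in mutant GFP-negative cells. Of all features, 19.3% were higher and 15.4% lower in mutant CNS cells, and 17.5% and 17.4% in mutant GFP-negative cells. The gene tnrc6c2, of the GW182 family that links Argonaute to silencing, averaged 363 ± 16.7 in mutant CNS cells, against 198 ± 24.3 in wild-type CNS cells (0.83, adjusted p = 0.00243). In GFP-negative cells it averaged 268 ± 6.34 in the mutant and 86.1 ± 22.7 in wild type (1.5, adjusted p = 1.3e-05). Among the fragile X family of RNA-binding proteins, fmr1 rose by 0.59 in CNS and 0.68 in GFP-negative cells and fxr1 by 0.71 and 0.43, whereas fxr2 had −0.74 and −0.58, and all 6 values passed.

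Of 26 tested genes of deadenylation, decapping and decay, 5 were higher and 4 lower in mutant CNS cells, and 5 higher and 6 lower in mutant GFP-negative cells. In CNS cells these counts are 19.2% and 15.4% of the group, beside 19.3% and 15.4% of all features, and in GFP-negative cells 19.2% and 23.1%, against 17.5% and 17.4%. The decapping gene dcp1a averaged 166 ± 30.3 in mutant CNS cells, against 50.7 ± 4.23 in wild-type CNS cells (1.43, adjusted p = 1.7e-06), and 115 ± 16.7 in mutant and 41.1 ± 6.81 in wild-type GFP-negative cells (1.2, adjusted p = 1.4e-05). The deadenylase subunit cnot7 averaged 184 ± 25.5 in mutant CNS cells, against 61.2 ± 3.29 in wild-type CNS cells (1.36), and 188 ± 18.4 in mutant and 64.7 ± 18.3 in wild-type GFP-negative cells (1.35). The decapping-associated genes lsm1 (1.18 and 1.17), lsm14aa (0.81 and 0.72) and edc3 (0.72 and 0.70) were also higher in mutant CNS and GFP-negative cells. The poly(A)-binding protein gene pabpc1a averaged 4023 ± 141 in mutant CNS cells, against 7291 ± 801 in wild-type CNS cells (−0.85, adjusted p = 5.5e-06), with −0.71 in GFP-negative cells. With quantile normalization the pabpc1a values were −0.26 and −0.25 and still passed. In GFP-negative cells the related genes pabpc4 (−1.10) and pabpc1b (−0.81) were lower in the mutant, with −0.03 and −0.34 in CNS cells, which did not pass. Of the other lower genes, tob1b, which recruits deadenylases, had −0.82 and −0.74, and the CCR4-NOT subunit cnot10 had −0.68 and −0.42. Of the 2 tested PIWI and germline genes, piwil1 was lower in mutant CNS cells (−0.54, adjusted p = 0.0403). It averaged 25.4 ± 4.21 there, against 45.8 ± 16.6 in wild-type CNS cells. The mutant mean lies within the range of the 40th percentiles of the arrays, 18.5 to 26.6, so piwil1 was dim. The other, tdrd7a, averaged 16.7 ± 4.97 in mutant and 37.9 ± 15.9 in wild-type GFP-negative cells. Its mutant means were below the lowest 40th percentile of any array, 18.5, and it was kept through wild-type arrays. Its values are therefore a description, although it is among the genes counted as lower above. In mutant GFP-negative cells dnd1, a germ-cell RNA-binding protein gene, was lower (−0.94, adjusted p = 0.00334). Among mrpl44, a ribonuclease III relative, and 5 subunits of RNase P, listed for comparison, 1 gene, rpp14, passed in each fraction (−0.44 and −0.55).

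**Figure D5:**
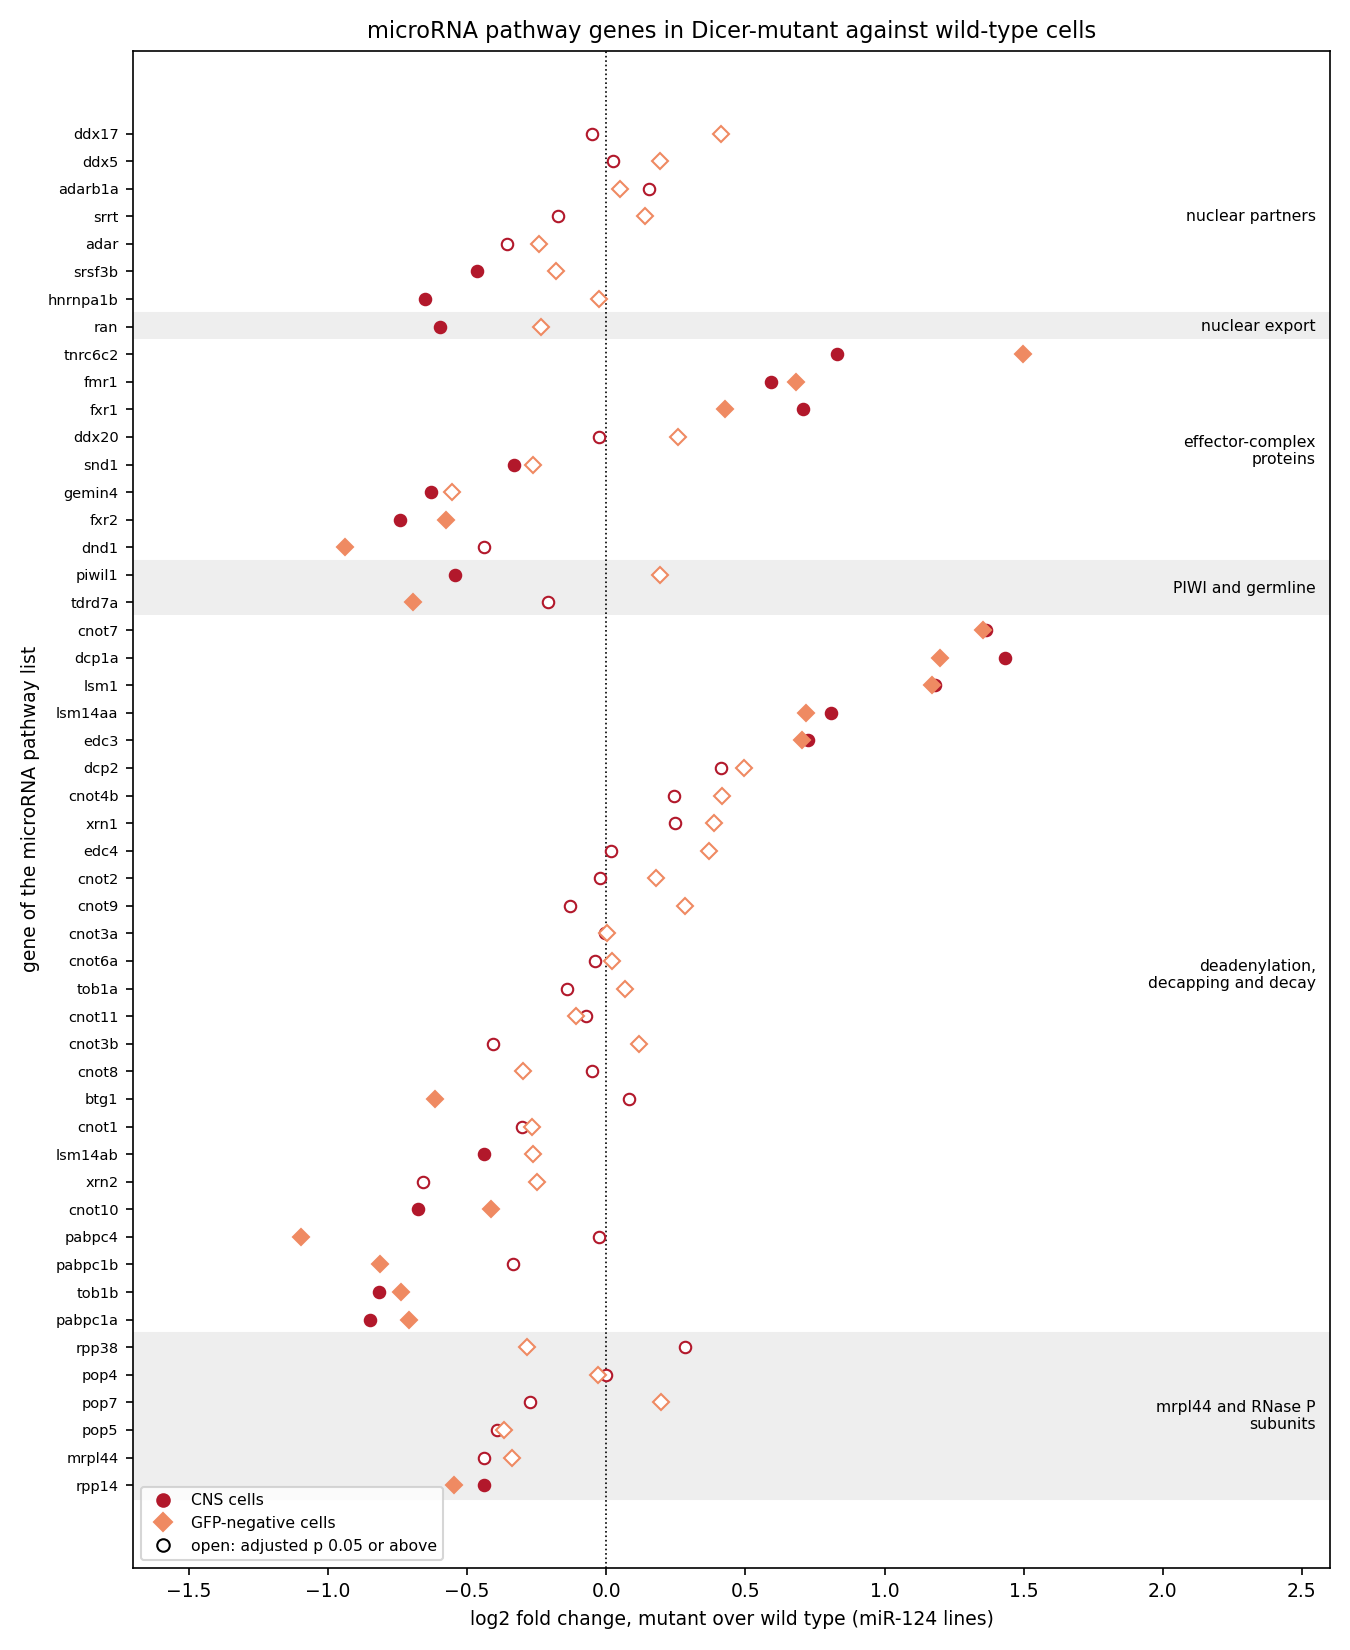
log2 fold change of mutant over wild type (x axis) for the 50 tested genes of the microRNA pathway list (rows, shaded by role) in CNS cells and in GFP-negative cells; open symbols had an adjusted p of 0.05 or above. dcp1a, cnot7, lsm1 and tnrc6c2 lie farthest to the right, at 0.83 or more in both fractions, and pabpc1a and tob1b lie below −0.70 in both.

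Across the sorts, 7 of the 50 genes were higher and none lower in muscle than in GFP-negative cells, where 13.1% and 23.1% of all features passed. The median of the list was 0.02, against −0.06 over all features, and 15 of its genes were higher with arrays centred on their medians. In CNS against GFP-negative cells 8 were higher and 8 lower in the wild-type line, against 14.5% and 18.3% of all features, with a median of 0.12 against 0.02 over all features. There 16 were higher with centred arrays, 4 with array weights and 3 with only those groups fitted, and in muscle 4 with only those groups fitted and 11 with the replicate block. The number higher in wild-type CNS cells was 3 without CNS replicate 1, 4 without CNS replicate 2 or GFP-negative replicate 2, and 5 without GFP-negative replicate 3, and in muscle it was 12 without GFP-negative replicate 1. In the mutant line 2 were higher and 5 lower, against 6.49% and 9.03% of all features, and 1 was higher without CNS replicate 1 or 3 or GFP-negative replicate 2, and 0 without GFP-negative replicate 1. The muscle increases were led by fxr2 (2.56, averages 1141 ± 205 in muscle and 178 ± 11.5 in GFP-negative cells), the poly(A)-binding protein gene pabpc4 (2.59) and tob1b (1.63). Each of them passed as lower in CNS than in GFP-negative cells of the wild-type miR-124 line, at −1.03, −3.30 and −1.03.

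Marker genes of other cell types also differed with genotype, where 19.3% of all features were higher and 15.4% lower in mutant CNS cells, and 17.5% and 17.4% in mutant GFP-negative cells. In mutant CNS cells 7 of 10 epidermis genes were higher, with a summed intensity of 4841 to 7410 in the mutant and 1672 to 2604 in wild type. There 6 of 16 neuron genes were also higher (5288 to 6401 in the mutant, 3474 to 4370 in wild type). Of 20 CNS progenitor genes 5 were lower, with overlapping sums (10642 to 12743 in the mutant, 11268 to 12217 in wild type). In mutant GFP-negative cells 4 of 5 myeloid genes were lower (290 to 402 in the mutant, 1517 to 2517 in wild type), as were 4 of 11 erythroid genes (2498 to 4361 in the mutant, 8370 to 9584 in wild type) and 6 of 19 muscle genes (5151 to 7440 in the mutant, 7974 to 10671 in wild type). Of 10 presomitic mesoderm genes 5 were higher, with overlapping sums (4800 to 6895 in the mutant, 2296 to 4854 in wild type). In these cells 4 of 10 epidermis genes were lower, the reverse of the CNS cells, with overlapping sums (6453 to 8917 in the mutant, 7768 to 10166 in wild type). Also lower were 3 of 5 germ cell genes, including tdrd7a, and 2 of 4 endothelial genes, with overlapping sums. The part of these shifts in the values of dicer1, drosha and dgcr8 was not tested.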

How the data were processed

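The deposited values are MAS5 signal intensities that the authors computed per probe set, per the submitters' processing notes, with no version and no detection calls given. Every array has the same 2% trimmed mean. Sequencing depth does not apply to arrays. Each group mean rests on 3 arrays, and the spread was estimated over all 18 arrays. The platform annotation named 1 gene for 10795 of the 15502 probe sets that are not controls, several for 135 and none for 4572, and 10711 were matched by gene ID to the RefSeq table (assembly GRCz12tu), used for names.

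From the intensities, log2(intensity + 16) was fitted with limma 3.58.1 in R 4.3.3 (1 mean per group, trended empirical Bayes, 12 residual degrees of freedom). A probe set was kept if above the 40th percentile of its array on at least 3 of 18 arrays (10704 kept), and the kept probe set with the highest mean stood for its gene. Fold changes on this scale understate changes of dim probe sets. The procedure was run on simulated data with independent errors for each array, which does not cover same-numbered arrays that deviate together. Tables and figures used Python 3.11.15, pandas 2.3.3, numpy 2.4.6 and matplotlib 3.10.9.

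Pathway genes were named if past the threshold, up to 6 per direction with the smallest adjusted p, and like genes as the 5 with the highest r. Further pathway genes (ddx5, ddx17, srrt, srsf3b, edc3) were named by role after their values were seen. The members and lists were chosen with earlier results of these data known. P-values rest on the labels' statement that replicates are biological. Same-numbered arrays deviated together within the miR-206 line (r = 0.367, 0.372 and 0.203) and the mutant line (r = 0.104, 0.275 and 0.297), not in the wild-type miR-124 line (r = 0.181, 0.00284 and −0.0859). Alternatives changed the pseudocount (1 or 64), filter, scaling, arrays fitted, array weights, probe sets per gene, replicate block and single arrays.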

Additional observations from a re-analysis of the deposited data

Results flagged for a closer look

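The 3 genes themselves met no criterion for a closer look. Groups of 3 arrays are too small for a test of single outlying arrays. Among the named pathway genes, 8 had a GFP-positive over GFP-negative difference in the muscle sort that differed from that in the wild-type CNS sort, by limma's interaction test. Those genes were named by their adjusted p in these data, in part in the same sorts, so their values are a description. Of the 50 tested genes of the list, 6 passed with a positive difference, muscle sort minus CNS sort, and 3 with a negative difference. The difference between sorts, muscle minus CNS on the log2 scale, was 5.89 for pabpc4 (SE 0.35, adjusted p = 3.92e-11), 3.59 for fxr2 (SE 0.23, adjusted p = 9.52e-11) and 2.66 for tob1b (SE 0.27, adjusted p = 1.01e-07). It was 1.07 for dnd1 (adjusted p = 0.0118), 0.64 for fxr1 (adjusted p = 0.018) and 0.60 for snd1 (adjusted p = 0.00462). It was −1.04 for piwil1 (adjusted p = 0.00662) and −1.17 for tnrc6c2 (adjusted p = 0.00191). By this test 34.1% of all features passed, and the reporter line changes with the tissue, so they cannot be told apart. The GFP-negative references also differ between the lines. Summed muscle genes ran from 1321 to 1876 in the miR-206 line and from 7974 to 10671 in the wild-type miR-124 line. Pabpc4 averaged 145 and 479 in these references. The differences between sorts therefore include those between the references and do not measure muscle against CNS cells alone. Piwil1 averaged 12.5 in muscle, 16.5 in GFP-negative miR-206 cells and 17.5 in GFP-negative wild-type miR-124 cells. These means are below the lowest 40th percentile of any array, 18.5. Among the groups of this comparison, only the wild-type CNS mean of piwil1, 45.8, is above it.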

How the results depend on the processing

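In mutant over wild-type cells, dgcr8 in each fraction and the averages over both fractions of dicer1, drosha and dgcr8 kept their direction and stayed past the threshold under every alternative. With quantile normalization and with median-centred arrays, drosha in mutant over wild-type CNS cells did not pass (0.30 and 0.36), drosha in wild-type CNS over GFP-negative cells passed (0.42 and 0.42), and drosha in muscle over wild-type CNS cells, uncalled, turned to 0.11 and 0.11. Median centring also turned the uncalled dgcr8 differences of muscle over GFP-negative cells (0.015) and of muscle over wild-type CNS cells (0.094). Dicer1 in muscle over wild-type CNS cells passed with only the compared groups (−0.57), with array weights (−0.58) and with replicate number as a term (−0.57). The dicer1 interaction turned to −0.049 with array weights, and dicer1 at −0.60 did not pass against miR-206 GFP-negative cells. Single dim probe sets turned sign without a call: dgcr8 Dr.15101.3.S1_at at −0.0037 (pseudocount 64, muscle over wild-type CNS cells) and −0.015 (array weights, muscle over GFP-negative cells), and drosha Dr.11510.2.S1_at at 0.012 (quantile, mutant CNS over GFP-negative cells).

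With single arrays left out, the mutant over wild-type values ran from −1.10 to −0.63 for dicer1 in CNS and from −1.21 to −0.60 in GFP-negative cells, and for drosha from 0.42 to 0.46 in CNS cells. Uncalled values changed sign for dicer1 in muscle over GFP-negative cells (−0.030 to 0.26), in the genotype interaction (−0.20 to 0.41) and in the interaction of the sorts (−0.56 to 0.046). They did so for drosha in muscle over CNS cells (−0.054 to 0.023) and for dgcr8 in muscle over CNS cells (−0.10 to 0.080), in wild-type CNS over GFP-negative cells (−0.10 to 0.32) and in the genotype interaction (−0.10 to 0.33). For dgcr8 Dr.15101.3.S1_at they ran from −0.14 to 0.13 in muscle over CNS cells, −0.065 to 0.16 between the wild-type GFP-negative cells, −0.21 to 0.065 in the interaction of the sorts and −0.049 to 0.13 in mutant CNS over GFP-negative cells.

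Counts of features moved as follows: between the wild-type GFP-negative cells 585 passed, 198 with only those groups fitted, 371 with array weights and 359 to 636 with single arrays left out. In mutant CNS over GFP-negative cells 1482 passed, and 2411 with array weights. For the genotype interaction 246 passed, 425 with the replicate block within lines and 141 to 317 with single arrays left out. That replicate block changed no call of dicer1, drosha or dgcr8, and the pairing check is given with the processing. Median centring put the median of all features at 0.14 against −0.06 as deposited in muscle over GFP-negative cells (2226 higher and 1543 lower, against 1248 and 2208), at 0.17 against 0.02 in wild-type CNS over GFP-negative cells (2304 and 1402, against 1385 and 1744), and at 0.06 against −0.06 in muscle over CNS cells (2262 and 1980, against 1747 and 2495). It also moved the split in mutant over wild-type CNS cells (1513 higher and 1843 lower, against 1838 and 1475) and between the wild-type GFP-negative cells (344 and 312, against 213 and 372), and quantile normalization moved it in muscle over GFP-negative cells (1609 and 1862). The causes were not tested. Changes of dim probe sets are limited by their signal near background.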
